A study of Rattus norvegicus with 12 samples.

Results

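Heat shock proteins and their co-chaperones were examined in adult rat ventricular myocytes (ARVMs) transduced with an adenovirus that carries human NR4A2. The family was taken by gene symbol, as the Hspa, Hspb, Hspd, Hspe, Hsph, Hsp90, Dnaja, Dnajb, Dnajc, Bag1 to Bag6 and Hsf genes and Cryab. It held 83 of the 17301 gene names listed, with 85 of 18752 transcripts. The symbol rule uses no measured value, but it was chosen with earlier results of these data known. ARVMs are contractile cells isolated from hearts of male Sprague Dawley rats, whose age is not given in the sources used here. The 6 Ad-h-NR4A2 samples received full-length human NR4A2 driven by the CMV promoter, and the 6 Ad-GFP samples received the green fluorescent protein virus as the transduction control. Both groups thus carried an adenovirus, at a multiplicity of infection (MOI) of 50, and RNA was taken 48 h later. NR4A2 is an orphan nuclear receptor, and the comparison asks how its excess changes the transcripts of the cell. The samples of both groups have the numbers 24 to 29.

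Chaperones bind unfolded stretches of other proteins and let them fold, refold or be degraded. HSP70 proteins do this in cycles of ATP hydrolysis, J-domain proteins (the DNAJA, DNAJB and DNAJC families) start the cycle, and HSP110 and BAG proteins end it by exchanging the nucleotide. Small heat shock proteins hold unfolded clients without ATP and are abundant in the heart muscle cell, where Cryab and its relatives bind titin, desmin and actin filaments. The transcription factor HSF1 induces the cytosolic members through heat shock elements, while the unfolded protein response induces the chaperones of the endoplasmic reticulum (ER).

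Nr4a2 had 0.626 to 1.40 fragments normalized for transcript length and library size (FPKM) in Ad-GFP samples and 445 to 592 FPKM in Ad-h-NR4A2 samples, where fragments of the human transgene and of the rat gene are not separated. Depth implied by the low values was 18700000 to 27800000 fragments per sample in the first group and 21600000 to 27100000 in the second. Summed FPKM of 5 cardiomyocyte markers was 17590 to 22760 in Ad-GFP and 15610 to 19210 in Ad-h-NR4A2 samples, and 3 of the 5 fell. Sums were 9.04 to 30.1 and 5.803 to 26.4 FPKM for 6 fibroblast markers (1 of 5 tested fell, and Col1a2 was listed at 0 throughout), 7.04 to 20.2 and 6.83 to 16.5 for 3 smooth muscle markers (1 fell), 5.95 to 19.6 and 4.91 to 18.6 for 4 endothelial markers (none called), and 0.266 to 1.17 and 0.881 to 2.60 for 3 leukocyte markers (1 of 2 tested rose). The part of these markers in any result here was not tested. In bulk RNA, fewer cells of a type and less RNA per cell cannot be told apart.

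The promoters of 5 members are shown first, as examples of the motifs referred to below. Sequences are those of RefSeq for the rat build GRCr8, 250 bases before and 50 bases after the transcription start, 5′ to 3′ in the direction of the gene, and capitals mark motif matches. Hsph1, Dnaja1 and Hspd1 hold the 3-unit heat shock element, in which GAA and its reverse complement TTC alternate 3 times at a spacing of 2 bases. Hspb1 holds the 2-unit form GAANNTTC, which every 3-unit match also contains, and Hspa5 holds the ER stress response element, CCAAT and CCACG separated by 9 bases.
Hsph1, chr12:10427118-10427417, plus strand: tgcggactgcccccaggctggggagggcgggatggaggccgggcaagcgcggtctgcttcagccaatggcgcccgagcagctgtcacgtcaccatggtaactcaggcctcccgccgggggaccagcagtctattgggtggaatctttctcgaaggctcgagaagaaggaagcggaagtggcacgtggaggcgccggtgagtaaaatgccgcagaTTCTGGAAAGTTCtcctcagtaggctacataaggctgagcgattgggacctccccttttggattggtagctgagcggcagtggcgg
Dnaja1, chr5:60638154-60638453, plus strand: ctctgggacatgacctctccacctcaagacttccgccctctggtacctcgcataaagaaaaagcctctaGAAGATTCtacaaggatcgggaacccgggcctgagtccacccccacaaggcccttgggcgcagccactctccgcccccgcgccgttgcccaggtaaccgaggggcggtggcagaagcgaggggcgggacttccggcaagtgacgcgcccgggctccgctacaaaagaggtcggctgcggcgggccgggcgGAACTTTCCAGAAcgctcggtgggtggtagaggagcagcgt
Hspd1, chr9:64083988-64084287, minus strand: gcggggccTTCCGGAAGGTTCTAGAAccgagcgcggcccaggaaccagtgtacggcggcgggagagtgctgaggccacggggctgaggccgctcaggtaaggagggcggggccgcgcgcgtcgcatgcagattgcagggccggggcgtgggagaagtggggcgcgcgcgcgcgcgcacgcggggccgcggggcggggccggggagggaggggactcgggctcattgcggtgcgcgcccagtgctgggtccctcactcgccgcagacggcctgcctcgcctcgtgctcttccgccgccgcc
Hspb1, chr12:26432252-26432551, minus strand: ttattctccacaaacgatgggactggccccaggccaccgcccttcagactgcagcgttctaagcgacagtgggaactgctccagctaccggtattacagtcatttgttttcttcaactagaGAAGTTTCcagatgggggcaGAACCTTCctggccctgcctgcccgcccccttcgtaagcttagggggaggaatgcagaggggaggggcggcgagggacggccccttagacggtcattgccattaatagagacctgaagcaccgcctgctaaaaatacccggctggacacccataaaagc
Hspa5, chr3:38452766-38453065, plus strand: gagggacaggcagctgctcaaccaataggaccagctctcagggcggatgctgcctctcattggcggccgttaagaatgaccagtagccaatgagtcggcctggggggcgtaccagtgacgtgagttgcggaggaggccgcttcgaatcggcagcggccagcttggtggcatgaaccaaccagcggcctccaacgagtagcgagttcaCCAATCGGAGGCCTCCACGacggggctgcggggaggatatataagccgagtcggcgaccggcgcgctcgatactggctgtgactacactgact
The 3-unit match begins 36 bases before the start in Hsph1 and at base 10 after it in Dnaja1, and the ER stress element begins 43 bases before the start in Hspa5. Of the 83 members, 64 matched a promoter. Searched on both strands, the 3-unit element was present in 7.81% of them (Dnaja1, Hspa8, Hspd1, Hspe1 and Hsph1) and in 0.798% of all 33469 promoters, and the 2-unit form in 21.9% and 8.59%. The ER stress element was present in 4.69% (Dnajc3, Hsp90b1 and Hspa5) and in 0.0657% of all promoters. The NR4A binding element AAAGGTCA was present in 4.69% (Dnajb13, Hspa1l and Hspe1) and in 1.43%. A match describes letters and is not evidence of binding.

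Of the 83 members, 76 were above 0 in all 12 samples and were tested. Dnajb7, Dnajb8 and Hspb9 were listed at 0 in every sample. Dnajb13, Dnajc5g, Dnajc6 and Hspa1a were above 0 in 1, 4, 4 and 5 samples, by at most 1 fragment. Fold changes are on the log2(FPKM + 0.1) scale, on which scarce transcripts appear to change less than they do, and every adjusted p below is from limma with Benjamini-Hochberg adjustment over 10950 genes.

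The family moved in both directions, with members that rose and members that fell in most classes. At an adjusted p below 0.05, 15 of 76 members rose (19.7%) and 21 fell (27.6%), against 19.3% and 21.7% of all genes tested. With a ratio of mean FPKM of at least 1.5 in addition, 4 members rose and 7 fell (5.26% and 9.21%), against 7.94% and 7.24% of all genes. Values of the 2 groups did not overlap in 7 members that were higher and 8 that were lower with Ad-h-NR4A2 (9.21% and 10.5%), against 10.9% and 10.6% of all genes. With the sample number as a block, 25 members were called higher and 32 lower, where 27.1% and 32.3% of all genes were called, and the counts past 1.5-fold were still 4 and 7. The median log2 fold change was -0.03 over the 76 members and -0.02 over all genes.

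**Figure D1:**
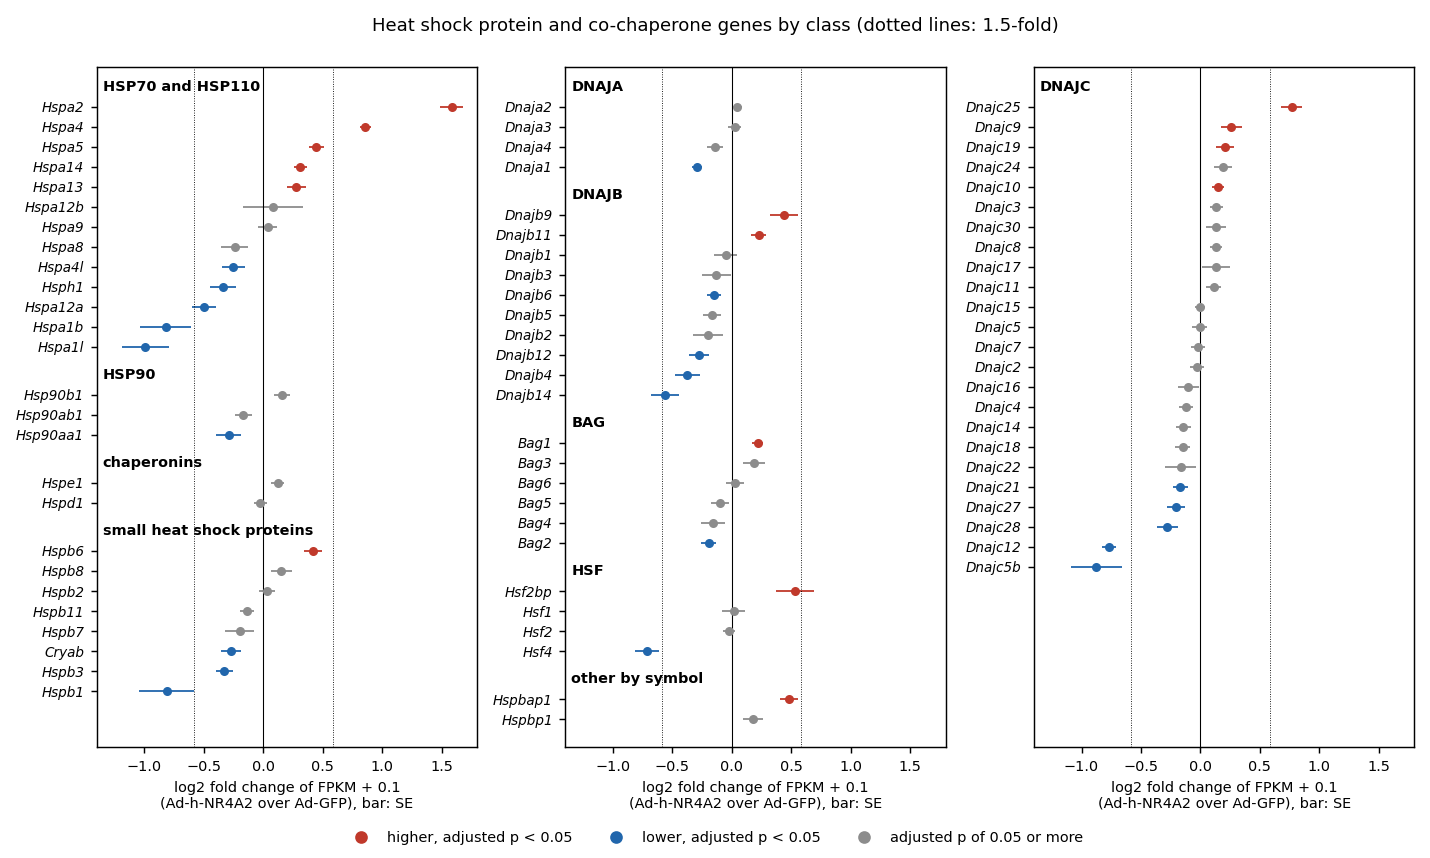
Log2 fold change of FPKM + 0.1 (Ad-h-NR4A2 over Ad-GFP, 6 samples each) of the 76 tested members by chaperone class, with the SE as a bar; red points rose and blue points fell at an adjusted p below 0.05 (limma, Benjamini-Hochberg), and dotted lines mark 1.5-fold. Hspa2 (1.59) and Hspa1l (-0.99) are the extremes, both in the HSP70 class, and most members lie within the dotted lines; Hsf2bp and Dnajb14 passed 1.5-fold by their mean FPKM although they lie inside the lines.

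In the HSP70 and HSP110 class, 5 of 13 tested members rose and 5 fell, where 19.3% and 21.7% of all genes did. Hspa2, an HSP70 known best from the testis, changed most. Its FPKM ranged from 2.21 to 3.38 (median 2.68) in Ad-GFP samples and from 7.39 to 8.69 (median 8.46) in Ad-h-NR4A2 samples. All Ad-h-NR4A2 samples lay above all Ad-GFP samples, with sample 24 the lowest of its group in both. Mean FPKM was 2.73 ± 0.423 (SD, n = 6) and 8.32 ± 0.466, a log2 fold change of 1.59 with an SE of 0.10 (adjusted p = 4.56e-08). The listed locus of Hspa2 on chromosome 6 of Rn5, 108825980 to 108936519, also holds Zbtb1 and Ppp1r36. Ppp1r36 rose as well (4.27 to 9.95 FPKM, log2 fold change 1.23), whereas Zbtb1 fell slightly (7.19 to 6.13, -0.23).

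Hspa4, an HSP110 that serves cytosolic HSP70 as nucleotide exchange factor, lies on chromosome 10 of Rn5, from 38383100 to 38423972. It had 122 to 135 FPKM (median 131) with Ad-GFP and 220 to 255 FPKM (median 232) with Ad-h-NR4A2. The groups were far apart relative to their spread, 130 ± 4.95 against 235 ± 15.0 FPKM. The log2 fold change was 0.86 with an SE of 0.05 (adjusted p = 1.22e-08), and these values rest on 9967 to 29668 fragments per sample. No motif searched here was found in its promoter.

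The other HSP110 proteins changed in the opposite direction. Hsph1, whose heat shock element is shown above, had 72.8 to 109 FPKM (median 91.2) with Ad-GFP and 59.5 to 84.3 (median 70.5) with Ad-h-NR4A2. The groups overlapped, and Hsph1 fell by 0.34 on the log2 scale with an SE of 0.11 (adjusted p = 0.0248). That call was lost in 5 of the 12 fits without 1 sample (adjusted p up to 0.0575). Hspa4l, the third of these proteins, fell from 13.9 ± 1.797 to 11.6 ± 1.21 FPKM (-0.25, adjusted p = 0.0492). The log2 ratio of Hspa4 to Hsph1 within a sample was 0.55 ± 0.22 (SD, n = 6) in Ad-GFP and 1.74 ± 0.23 in Ad-h-NR4A2 samples, given as a description of the pair.

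Both HSP70 proteins of the secretory pathway rose. Hspa5 (BiP), the major HSP70 of the ER lumen, had 522 to 706 FPKM (median 626) with Ad-GFP and 804 to 871 (median 852) with Ad-h-NR4A2. No Ad-GFP sample reached the lowest Ad-h-NR4A2 sample, and the second group had the smaller spread (625 ± 65.5 against 847 ± 23.1 FPKM). The log2 fold change was 0.44 with an SE of 0.06 (adjusted p = 8.27e-05). Hspa13, a microsomal HSP70, rose from 28.4 ± 3.78 to 34.3 ± 1.87 FPKM (0.28, adjusted p = 0.0111). Outside that pathway Hspa14, which assists the nascent chain at the ribosome, rose from 20.9 ± 1.53 to 25.9 ± 1.34 FPKM without overlap (0.31, adjusted p = 5.94e-04).

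Hspa9 (mortalin), the mitochondrial HSP70, was not called. It ranged from 521 to 727 FPKM (median 605) with Ad-GFP and from 570 to 715 (median 593) with Ad-h-NR4A2, and the groups overlapped over most of that range (log2 fold change 0.04, SE 0.08, adjusted p = 0.736). The log2 ratio of Hspa5 to Hspa9 was 0.06 ± 0.14 (SD, n = 6) in Ad-GFP and 0.46 ± 0.12 in Ad-h-NR4A2 samples.

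The HSP70 genes of the Hspa1 cluster were lower but scarce. Hspa1l, the constitutive member of the cluster that is known best from the testis, had 4.29 to 7.83 FPKM (median 5.88) with Ad-GFP and 1.78 to 4.19 (median 3.10) with Ad-h-NR4A2, without overlap (log2 fold change -0.99, SE 0.20, adjusted p = 0.00131). The stress-inducible Hspa1b had 1.05 to 2.14 FPKM (median 1.38) and 0.439 to 1.27 (median 0.789), and it fell by 0.82 on the log2 scale with an SE of 0.22 (adjusted p = 0.008). Each of them was lower with Ad-h-NR4A2 in all 6 same-numbered pairs. Hspa1a, Hspa1b and Hspa1l share a single listed locus on chromosome 20, and the coding sequences of Hspa1a and Hspa1b are near-identical. The division of fragments between Hspa1a and Hspa1b is therefore uncertain, and their separation from Hspa1l was not tested.

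Hspa8, the constitutive HSP70, was listed at only 2.97 to 3.95 FPKM (median 3.57) with Ad-GFP and 2.33 to 3.74 (median 2.93) with Ad-h-NR4A2. Its listed locus, on chromosome 11 of Rn5 from 17153157 to 17155257, is as long as the transcript and has no room for an intron, and RefSeq's GRCr8 table gives Hspa8 on another chromosome. These values are therefore not read here as the level of the Hspa8 gene (log2 fold change -0.24, adjusted p = 0.104, and 0.0228 with the block). Among the atypical HSP70 proteins, Hspa12a fell from 1.26 ± 0.105 to 0.864 ± 0.111 FPKM without overlap (-0.50, adjusted p = 0.00173), while Hspa12b had under 0.3 FPKM in every sample and was not called.

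**Figure D2:**
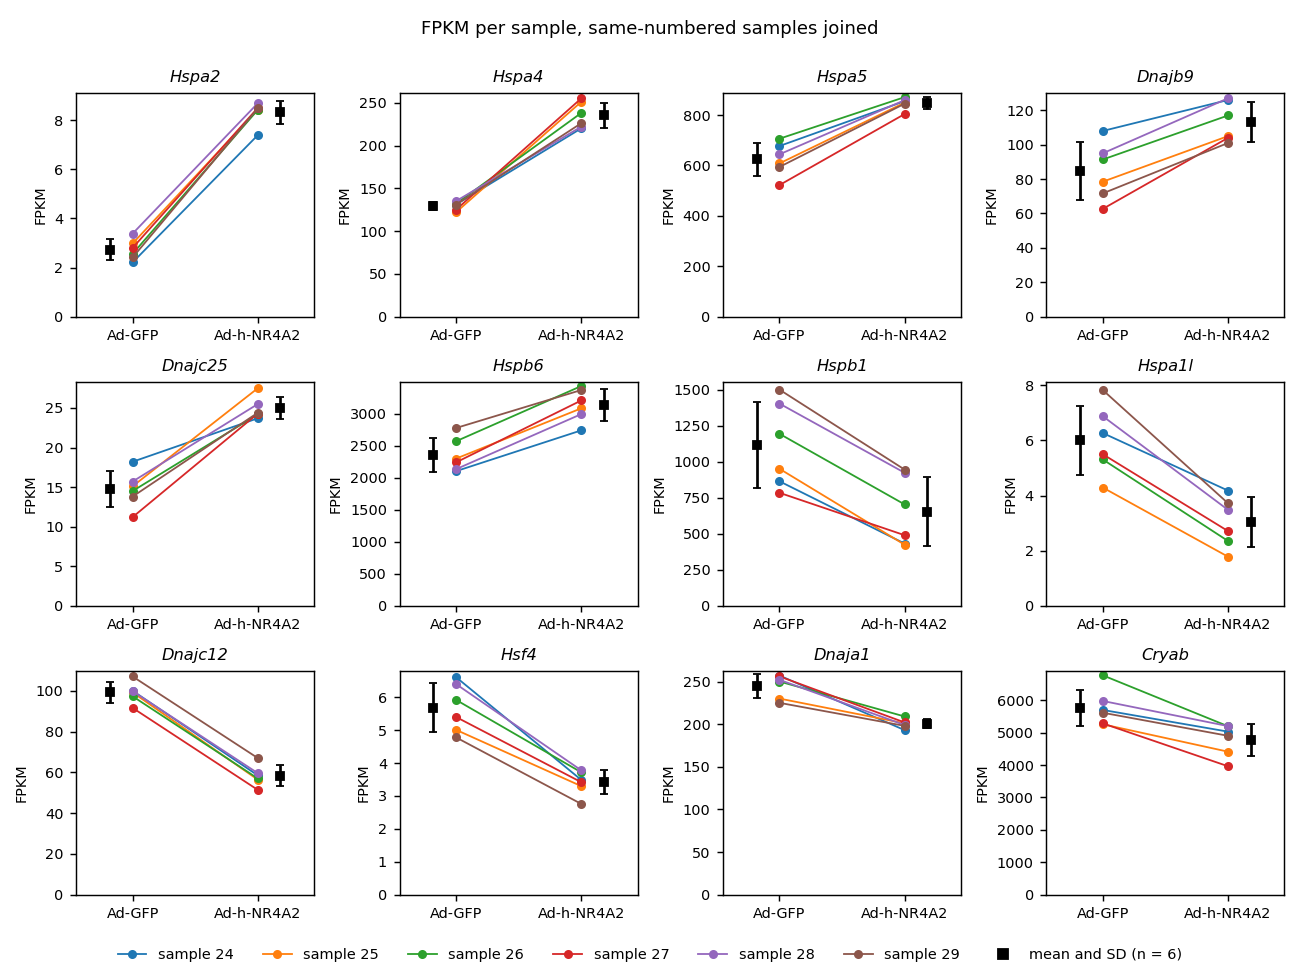
FPKM per sample (vertical axes, starting at 0) of 12 members in Ad-GFP and Ad-h-NR4A2 samples, with a line joining samples of the same number and black squares giving the mean and SD of 6 samples. In each of the 12 panels all 6 lines run the same way, upward for Hspa2, Hspa4, Hspa5, Dnajb9, Dnajc25 and Hspb6 and downward for Hspb1, Hspa1l, Dnajc12, Hsf4, Dnaja1 and Cryab. All 12 are members called at an adjusted p below 0.05 (limma), and the panels do not stand for the whole family. Pairs of Hsf1 and Hspa9, for example, split 3 and 3.

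Of the HSP90 proteins, the inducible cytosolic form Hsp90aa1 fell, and the other 2 were not called. Hsp90aa1 had 318 to 471 FPKM (median 404) with Ad-GFP and 286 to 369 (median 319) with Ad-h-NR4A2. The groups overlapped, and the log2 fold change was -0.29 with an SE of 0.10 (adjusted p = 0.0359). This call did not hold without a mean-variance trend or in 8 of the 12 fits without 1 sample (adjusted p up to 0.0781), and it held with the block (2.96e-04). The constitutive Hsp90ab1, the more abundant, had 1822 ± 161 (SD, n = 6) and 1625 ± 159 FPKM (-0.17, adjusted p = 0.0872). Hsp90b1 (GRP94), the HSP90 of the ER, had 257 ± 24.96 and 285 ± 20.1 FPKM (0.15, adjusted p = 0.083). With the block, Hsp90ab1 was called lower (adjusted p = 3.16e-04) and Hsp90b1 higher (0.00329).

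The mitochondrial chaperonin pair was not called. Hspd1 (HSP60) and its lid Hspe1 (HSP10) are neighbours on chromosome 9 of Rn5, Hspd1 from 61361745 to 61372172 and Hspe1 from 61372461 to 61375655. Hspd1 had 416 ± 29.9 (SD, n = 6) and 408 ± 25.4 FPKM (log2 fold change -0.03, adjusted p = 0.742). Hspe1 had 343 ± 28.02 and 373 ± 19.7 FPKM (0.12, adjusted p = 0.0985, and 0.0188 with the block). The log2 ratio of Hspe1 to Hspd1 was -0.28 ± 0.10 (SD, n = 6) in Ad-GFP and -0.13 ± 0.10 in Ad-h-NR4A2 samples, a description of a pair chosen after its values were seen.

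Small heat shock proteins made up most of the family's RNA. Of 8 tested members, 1 rose and 3 fell, where 19.3% and 21.7% of all genes did. Cryab (αB-crystallin), which guards desmin and titin, had 27.6% of the members' summed FPKM. It ranged from 5256 to 6765 FPKM (median 5655) with Ad-GFP and from 3962 to 5200 (median 4965) with Ad-h-NR4A2. The groups did not overlap, and Cryab fell by 0.27 on the log2 scale with an SE of 0.08 (adjusted p = 0.0183). Under quantile normalization the adjusted p was 0.0795.

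Hspb1 (HSP27), an actin-binding small heat shock protein with a pair of 2-unit heat shock elements in the promoter above, lies on chromosome 12 of Rn5 from 25837071 to 25838733. It had 785 to 1502 FPKM (median 1073) with Ad-GFP and 424 to 946 (median 597) with Ad-h-NR4A2. Same-numbered samples were high or low together, so that the groups overlapped although all 6 pairs were lower, at 0.445 to 0.658 of the paired Ad-GFP value. The log2 fold change was -0.81 with an SE of 0.23 (adjusted p = 0.0134, with an SE of 0.07 and an adjusted p of 1.17e-05 with the block). Hspb3, a muscle-specific member, fell without overlap from 62.0 ± 6.86 to 49.2 ± 3.42 FPKM (-0.33, adjusted p = 0.00218).

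Hspb6 (HSP20), a target of protein kinase A in the heart, rose. It had 2101 to 2775 FPKM (median 2268) with Ad-GFP and 2738 to 3430 (median 3143) with Ad-h-NR4A2. The highest Ad-GFP sample, number 29, exceeded the lowest Ad-h-NR4A2 sample, number 24, and all 6 pairs were higher (log2 fold change 0.42, SE 0.08, adjusted p = 7.68e-04). The log2 ratio of Hspb6 to Hspb1 was 1.11 ± 0.32 (SD, n = 6) in Ad-GFP and 2.34 ± 0.49 in Ad-h-NR4A2 samples, again as a description.

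Hspb7, the cardiovascular small heat shock protein, had 1639 ± 308 and 1422 ± 201 FPKM (-0.20, adjusted p = 0.214, and 0.00629 with the block). Hspb8, which works with Bag3 in clearing damaged Z-disc proteins, had 606 ± 61.6 and 674 ± 79.7 FPKM (0.15, adjusted p = 0.174, and 0.00212 with the block). Hspb2 is the neighbour of Cryab on chromosome 8 of Rn5, at 53774082 to 53775054 against 53775778 to 53779782. It had 316 ± 30.7 and 322 ± 24.9 FPKM (0.03, adjusted p = 0.738). The log2 ratio of Cryab to Hspb2 was 4.19 ± 0.21 in Ad-GFP and 3.89 ± 0.23 in Ad-h-NR4A2 samples, also without a test, since Cryab had been called and Hspb2 had not when the pair was chosen. Hspb11, a protein of cilia that belongs here by symbol only, was not called (-0.14, adjusted p = 0.0819, and 0.00296 with the block).

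**Figure D3:**
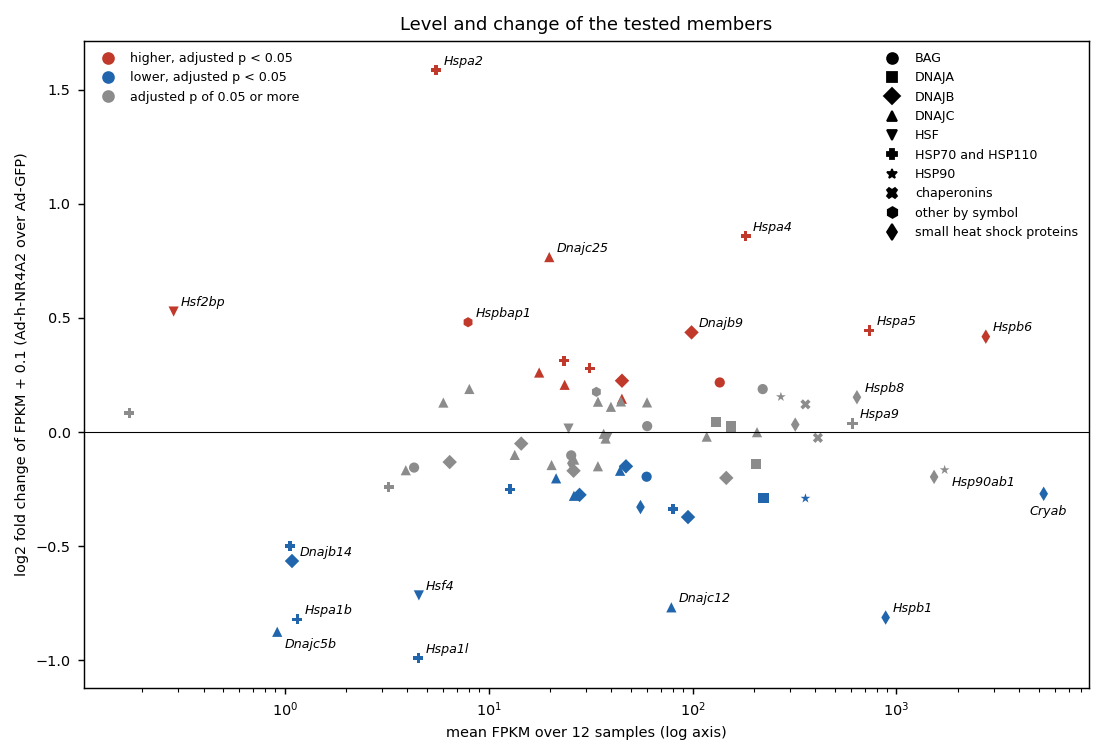
Mean FPKM over 12 samples (horizontal log axis) and log2 fold change of FPKM + 0.1, Ad-h-NR4A2 over Ad-GFP (vertical axis), of the 76 tested members, with symbols for the class and colours for the call (red higher, blue lower, adjusted p below 0.05 from limma). Cryab at 5274 FPKM and Hspb6 at 2744 FPKM are the most abundant members, and Hspb1 at 885 FPKM lies lowest among the abundant members (-0.81).

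Of the 14 tested J-domain proteins of types A and B, 5 fell and 2 rose, where 21.7% and 19.3% of all genes did. Dnaja1, the main cytosolic partner of HSP70 and a holder of the 3-unit heat shock element, had 225 to 257 FPKM (median 251.2) with Ad-GFP and 193 to 210 (median 199.9) with Ad-h-NR4A2. The groups did not overlap, and the Ad-h-NR4A2 samples were closely spaced (245 ± 14.0 against 200.3 ± 5.37 FPKM, n = 6). Dnaja1 fell by 0.29 on the log2 scale with an SE of 0.04 (adjusted p = 8.46e-05). The cytosolic Dnaja2 and Dnaja4 and the mitochondrial Dnaja3 were not called (log2 fold changes -0.14 to 0.05), though Dnaja4 was called lower with the block (adjusted p = 0.0016).

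Dnajb9 (ERdj4) and Dnajb11 (ERdj3), partners of Hspa5 in the ER lumen, were the type B members that rose. Dnajb9 had 62.8 to 108 FPKM (median 85.0) with Ad-GFP and 101 to 127 (median 111) with Ad-h-NR4A2, with overlap between the groups and a rise in all 6 pairs (0.44, SE 0.12, adjusted p = 0.00909). Dnajb11 rose from 41.6 ± 3.52 to 48.6 ± 3.02 FPKM (0.22, adjusted p = 0.00918).

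The type B members that fell include Dnajb12 and Dnajb14, J-domain proteins anchored in the ER membrane. Dnajb14 had 1.13 to 1.57 FPKM (median 1.31) with Ad-GFP and 0.698 to 1.02 (median 0.846) with Ad-h-NR4A2, without overlap, on 29 to 58 fragments per sample (-0.57, SE 0.12, adjusted p = 0.00167). Dnajb12 fell from 30.6 ± 3.01 to 25.3 ± 3.33 FPKM (-0.28, adjusted p = 0.0216). In the cytosol, Dnajb4, a stress-inducible partner of HSP70 in muscle, fell from 108 ± 17.1 to 82.6 ± 9.61 FPKM (-0.37, adjusted p = 0.0111), and Dnajb6, a suppressor of aggregation, fell by 0.15 (adjusted p = 0.0461).

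Dnajb1 (HSP40), the archetypal HSF1 target among J-domain proteins, had 12.4 to 17.7 FPKM (median 14.0) with Ad-GFP and 12.8 to 16.0 (median 14.3) with Ad-h-NR4A2. The groups overlapped almost wholly (log2 fold change -0.05, SE 0.10, adjusted p = 0.704). Dnajb2 had 156 ± 23.9 and 137 ± 24.8 FPKM (-0.20, adjusted p = 0.218, and 3.69e-04 with the block), lower in every pair. Dnajb3, listed in the same locus as the Ugt1a genes, and Dnajb5 were not called (-0.13 and -0.17), though Dnajb5 was called lower with the block (adjusted p = 0.0128).

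DNAJC proteins carry a J domain on otherwise unrelated bodies, and 4 of 24 tested members rose while 5 fell. These shares were near the 19.3% and 21.7% of all genes that rose and fell. Dnajc25, on chromosome 5 of Rn5 from 80295286 to 80315201, had 11.3 to 18.2 FPKM (median 14.8) with Ad-GFP and 23.7 to 27.5 (median 24.4) with Ad-h-NR4A2. The groups were well separated, and the log2 fold change was 0.77 with an SE of 0.09 (adjusted p = 1.85e-05). Its neighbour Gng10, with which it can form read-through transcripts, rose less (34.9 to 41.2 FPKM, 0.24). Dnajc12, a co-chaperone of the aromatic amino acid hydroxylases, changed by a like amount in the opposite direction. It lies on chromosome 20 of Rn5, from 8200176 to 8222141, and had 91.6 to 107 FPKM (median 99.5) with Ad-GFP and 51.4 to 67.0 (median 57.7) with Ad-h-NR4A2. Not a single Ad-h-NR4A2 sample came near the Ad-GFP range (-0.77, SE 0.06, adjusted p = 2.68e-07).

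Dnajc5b, a relative of cysteine string protein, had 0.908 to 1.57 FPKM (median 1.14) and 0.370 to 0.983 (median 0.598). It fell by 0.88 on the log2 scale with an SE of 0.21 (adjusted p = 0.00503), on only 6 to 30 fragments per sample. Smaller falls were called for Dnajc28 (-0.28, adjusted p = 0.0226, lost without Ad-GFP sample 24 or Ad-h-NR4A2 sample 29), Dnajc27 (-0.20) and the ribosome assembly factor Dnajc21 (-0.17). Dnajc9, a histone co-chaperone, rose from 16.1 ± 1.33 to 19.4 ± 2.75 FPKM (0.26, adjusted p = 0.0257). Dnajc19, a subunit of the motor that imports proteins into mitochondria, rose by 0.21 (adjusted p = 0.0409), and Dnajc10 (ERdj5), a reductase of the ER lumen, by 0.15 (adjusted p = 0.0368). Dnajc15, which has the same mitochondrial role as Dnajc19, had 207 ± 7.76 and 207 ± 11.9 FPKM (adjusted p = 0.992). Dnajc2, the partner of Hspa14 at the ribosome, was not called either (37.9 ± 3.44 and 37.0 ± 1.82 FPKM, adjusted p = 0.744). The 15 DNAJC members not called had log2 fold changes from -0.17 (Dnajc22) to 0.19 (Dnajc24). With the block, 9 of the 24 DNAJC members were called higher and 8 lower, where 27.1% and 32.3% of all genes were. The calls added were Dnajc3, Dnajc8, Dnajc11, Dnajc24 and Dnajc30 as higher (adjusted p = 0.0113 to 0.035) and Dnajc14, Dnajc18 and Dnajc22 as lower (0.00424 to 0.0446).

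Among the 6 BAG proteins, Bag1 rose and Bag2 fell. Bag1, a nucleotide exchange factor that links HSP70 to the proteasome, had 122 to 130.1 FPKM (median 126) with Ad-GFP and 130.1 to 158 (median 148) with Ad-h-NR4A2, the groups almost meeting at 130.1 (0.22, SE 0.05, adjusted p = 0.00172). Bag2, which restrains the ubiquitin ligase CHIP, fell from 63.6 ± 4.46 to 55.5 ± 4.48 FPKM (-0.20, adjusted p = 0.0202). Bag3, the HSF1-induced BAG protein needed for Z-disc upkeep in the heart, had 174 to 235 FPKM (median 208) with Ad-GFP and 199.7 to 277 (median 231) with Ad-h-NR4A2. Its groups overlapped (0.19, SE 0.09, adjusted p = 0.128), and the adjusted p was 0.00118 with the block. Bag4, Bag5 and Bag6 were not called (-0.16 to 0.03), and of these Bag5 was called lower with the block (-0.10, adjusted p = 0.00911).

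Of the heat shock factors themselves, Hsf4 fell, and Hsf1 and Hsf2 were not called. Hsf1, the master regulator of the heat shock response, had 20.6 to 27.96 FPKM (median 24.6) with Ad-GFP and 21.0 to 28.4 (median 24.8) with Ad-h-NR4A2. These ranges all but coincide (log2 fold change 0.01, SE 0.10, adjusted p = 0.920). Hsf2 had 38.6 ± 1.81 and 38.0 ± 2.33 FPKM (-0.02, adjusted p = 0.736). Hsf4, best known from the lens, had 4.78 to 6.61 FPKM (median 5.66) with Ad-GFP and 2.76 to 3.78 (median 3.46) with Ad-h-NR4A2. Its groups did not overlap, and Hsf4 fell by 0.72 on the log2 scale with an SE of 0.10 (adjusted p = 8.78e-05). Hsf2bp, a meiotic protein that belongs here by symbol only, rose from 0.215 ± 0.0551 to 0.356 ± 0.0978 FPKM on 9 to 34 fragments per sample (0.53, adjusted p = 0.0175).

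Of the remaining symbols, Hspbap1, a protein that binds Hspb1, rose from 6.604 ± 0.671 to 9.25 ± 0.812 FPKM without overlap (0.48, SE 0.08, adjusted p = 2.91e-04). Hspbp1, a nucleotide exchange factor of HSP70, had 31.8 ± 3.85 and 35.8 ± 3.24 FPKM (0.18, adjusted p = 0.115, and 0.00381 with the block).

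Grouped by programme, most called genes on the ER list rose and most called genes on the HSF1-inducible list fell. The lists are descriptions without a test of their difference. Of 20 tested genes on a list of ER chaperones and ER stress targets, 12 rose and 1 fell, where 19.3% and 21.7% of all genes did, with a median log2 fold change of 0.22 beside -0.02 over all genes. The list shares 6 genes with the symbol family, of which Hspa5, Dnajb9, Dnajb11 and Dnajc10 rose, and Hsp90b1 and Dnajc3 (0.13, adjusted p = 0.0727) were called higher with the block alone. The other 14 genes had 8 called higher, led by the transcription factor Xbp1 (67.4 ± 7.52 to 129 ± 23.0 FPKM, 0.93), the translocon subunit Sec61b (45.9 ± 6.49 to 80.1 ± 4.80 FPKM, 0.81) and the secreted stress factor Manf (83.5 ± 9.05 to 141 ± 9.41 FPKM, 0.76). Hyou1, the HSP110 of the ER that was outside the symbol rule, was the exception on this list that fell (49.9 ± 5.14 to 39.8 ± 4.27 FPKM, -0.33). Herpud1 was not called (150.3 ± 24.7 and 141 ± 33.1 FPKM). The list leaves out Dnajb12 and Dnajb14 of the ER membrane, which fell (-0.28 and -0.57), and the microsomal Hspa13, which rose (0.28).

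On a list of HSF1-inducible genes, 17 of 20 of which belong to the symbol family, 2 of 19 tested rose and 8 fell, beside the same 19.3% and 21.7% of all genes, with a median of -0.17. The list was assembled for the cytosolic programme but also holds the mitochondrial Hspd1 and Hspe1. It further holds the constitutive Hsp90ab1 and Hspa1l and the Hspa8 row with its limit given above. Hspa4 and the HSP90 activator Ahsa1 (210.2 ± 18.5 to 231 ± 2.63 FPKM, 0.14) rose. Hspa1l, Hspa1b, Hspb1, Dnajb4, Hsph1, Hsp90aa1, Dnaja1 and Cryab fell. The 9 not called include Dnajb1 (-0.05), Bag3 (0.19) and Hspb8 (0.15), and Bag3 and Hspb8 were called higher with the block. With the block 5 were called higher and 11 lower, where 27.1% and 32.3% of all genes were called. All 8 that fell without the block belong to the symbol family. Of the 3 listed genes outside it, Ahsa1 rose, and Chordc1 and Stip1 were not called (-0.09 and 0.04). Chordc1 was called lower with the block (adjusted p = 0.0355). By symbol, 5 holders of the 3-unit heat shock element were tested, and Dnaja1 and Hsph1 fell. With the block Hspe1 was called higher and the Hspa8 row lower in addition. Of the 13 holders of the 2-unit form tested by symbol, 1 rose and 4 fell, or 4 and 6 with the block. Both sets count the Hspa8 row. Its listed locus is on another chromosome than the promoter searched, so its call is not read as that of a holder. Among the 3 holders of the ER stress element, Hspa5 rose, and all 3 were called higher with the block. All 3 are on the ER list above, and the element was chosen after their values were seen, so they add nothing independent.

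Without the block, the shares that rose on the mitochondrial and partner lists were near the 19.3% of all genes. The share that rose on the CCT and prefoldin list, 5 of 12, was above it. The shares that fell on the 3 remaining lists were below 21.7%. Of 15 mitochondrial chaperones and partners, 3 rose and 1 fell (Clpx, a subunit of the matrix protease, 114 ± 7.73 to 91.0 ± 7.82 FPKM, -0.33), with a median of 0.04. Of 12 subunits of the cytosolic CCT chaperonin and prefoldin, which fold actin and tubulin, 5 rose and 2 fell, all by less than 0.3 (median 0.13). Of 20 partner proteins of HSP90 and HSP70 outside the symbol rule, 4 rose and 3 fell (median near 0, at -8e-04). Unc45b, which with HSP90 folds muscle myosin, changed most among them, from 64.5 ± 8.15 to 30.4 ± 1.96 FPKM (-1.08). St13, which holds HSP70 in its ADP state, rose from 159 ± 14.3 to 202 ± 13.8 FPKM (0.34). With the block, 7 of 15 mitochondrial, 8 of 20 partner and 9 of 12 CCT and prefoldin genes were called higher. The numbers called lower were 1, 4 and 2, and 27.1% and 32.3% of all genes were called higher and lower.

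**Figure D4:**
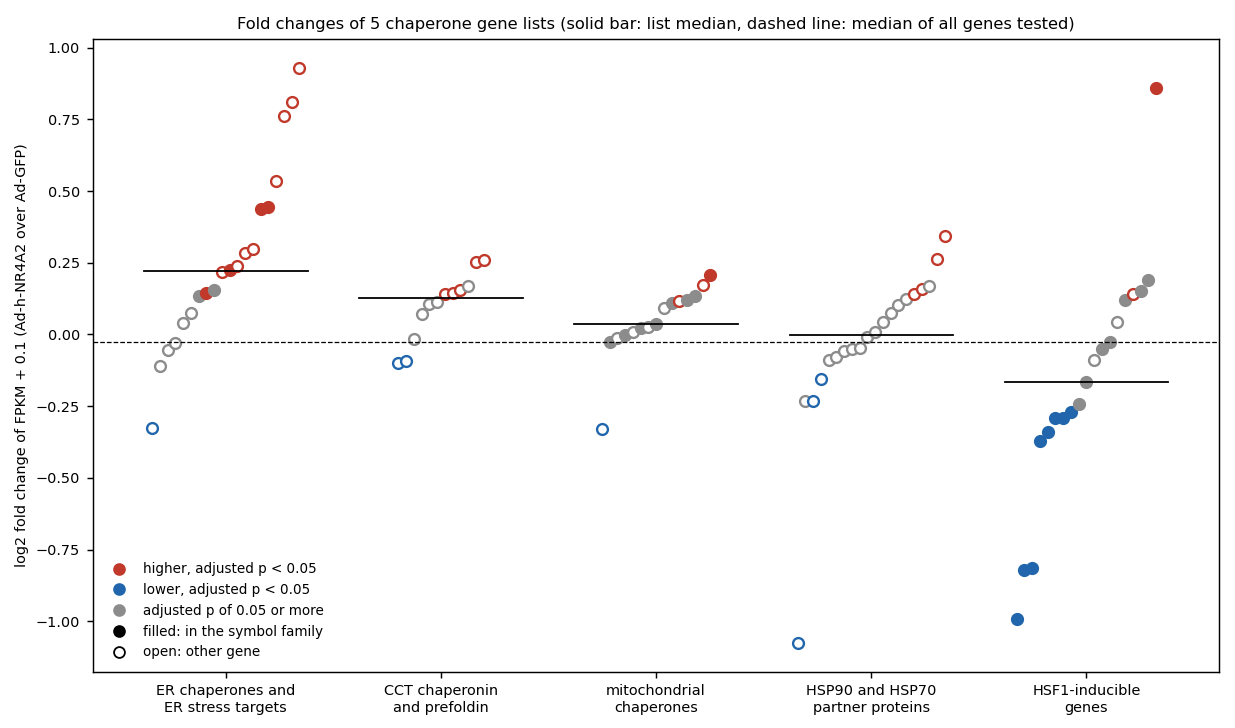
Log2 fold change of FPKM + 0.1 (Ad-h-NR4A2 over Ad-GFP, vertical axis) for each tested gene of 5 chaperone lists, sorted within a list, with filled points for the symbol family and open points for other genes; red rose and blue fell at an adjusted p below 0.05 (limma), the solid bar is the list median and the dashed line the median of all genes (-0.02). The ER list has its median at 0.22 with 12 genes called higher, and the HSF1-inducible list at -0.17 with 8 called lower and Hspa4 alone at the top (0.86).

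The family's summed FPKM changed little. It was 19480 ± 1292 (SD, n = 6) in Ad-GFP and 18706 ± 986 in Ad-h-NR4A2 samples, or 2.73% ± 0.181 and 2.60% ± 0.160 of all FPKM. Cryab, Hspb6, Hsp90ab1 and Hspb7 supplied 27.6%, 14.4%, 9.03% and 8.01% of it. Small heat shock proteins summed to 11880 ± 1122 and 11060 ± 849 FPKM, with overlapping ranges, the fall of Cryab and Hspb1 being partly offset by the rise of Hspb6. Among the class sums, that of HSP70 and HSP110 had the largest ratio, at 1525 ± 143 and 1857 ± 63.3 FPKM (1.22), carried mainly by Hspa5 and Hspa4, and its 6 Ad-h-NR4A2 sums (1786 to 1954) all lay above the Ad-GFP sums (1339 to 1720). HSP90 proteins summed to 2474 ± 239 and 2231 ± 190 FPKM, and DNAJC proteins to 981 ± 24.6 and 953 ± 18.5 FPKM. These sums are descriptions without a test, and Hspa8 enters them at its listed value.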

How the data were processed

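RNA of 12 ARVM samples was sequenced by the authors as stranded, paired-end mRNA libraries pooled in 1 run, and, per the labels and the paper's methods, reads were aligned with STAR to rat Rn5, with Cufflinks used for quantification. What the authors deposited for each sample are FPKM of 18752 RefSeq transcripts, fragments normalized for transcript length and library size. FPKM are not counts. Of 225024 values, 8 had a failed status.

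Groups were taken from the transduction label. A gene with several transcripts was represented by that with the highest mean FPKM (1016 names had several). Genes above 0 in all 12 samples (10950) were compared as log2(FPKM + 0.1) with limma 3.58.1 (eBayes with trend) in R 4.3.3, unpaired as in the paper, two-sided, at an adjusted p below 0.05. The fold changes printed are the limma coefficients on that scale, and the 1.5-fold limit was applied to the ratio of group mean FPKM. The comparison was tested on simulated data. Tables, motif searches and plots used Matplotlib 3.10.9, SciPy 1.17.1, NumPy 2.4.6 and pandas 2.3.3 under Python 3.11.15.

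The labels give both groups the numbers 24 to 29 without saying what these stand for, and the design text describes 6 independent experiments with different rats. Deviations from the group means correlated in every same-numbered pair (r = 0.347 to 0.623 over genes), so the numbers were taken to pair the samples, and the fit with the number as a block is given beside results whose call it changes.

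Depth was recovered from the low values of transcripts of at least 800 nucleotides, and 98.9% to 99.6% of them per sample were whole fragments within 0.05. Fragment numbers cover counting error only. The low depth of members near 1 FPKM limits their precision.

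Named genes were all members past 1.5-fold, up to 3 per class with the largest called change at a mean FPKM of at least 1, the most abundant of each class, and 20 textbook members, among them Hspa1a, Hspa8, Hsp90aa1, Bag3 and Hsf1. The members, gene lists and marker lists were chosen with earlier results of these data known. Genes named beyond that rule, the ratios of pairs and the ER stress element were chosen after their values were seen. Lists are described by counts and medians without a set test. Alternatives were pseudocounts of 1 and 0.01, quantile normalization, the TPM scale, no filter or a minimum mean FPKM of 1, the replicate block, summed transcripts, limma without trend, the fold from the limma coefficient and each sample left out. The Rn5 sequence was not used here, and promoters are RefSeq GRCr8, matched by symbol.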

Additional observations from a re-analysis of the deposited data

Results flagged for a closer look

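Among the named members, 76 groups of 6 samples were examined. In 2 of them a sample lay farther from the rest than Dixon's 95% limit, and chance flags about 1 in 20. Hspa2 in Ad-h-NR4A2 sample 24 was 7.39 FPKM, below the other 5 at 8.42 to 8.69 FPKM (gap 0.789 of the range). Hspbap1 in Ad-GFP sample 28 was 7.89 FPKM, above the other 5 at 5.91 to 6.55 FPKM (gap 0.676 of the range). Both genes were called higher in all 21 alternative fits, with adjusted p up to 4.16e-07 for Hspa2 and 0.00101 for Hspbap1.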

How the results depend on the processing

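With the replicate block, 25 members were called higher and 32 lower, against 15 and 21 without it. Leaving out each sample in turn gave 13 to 18 members higher and 14 to 24 lower, the lowest without Ad-h-NR4A2 sample 29, and 4 higher and 6 to 7 lower past 1.5-fold. Class medians near 0 changed sign, over -0.0304 to 0.0286 for HSF, -0.0553 to 0.0592 for HSP70 and HSP110 and -0.034 to 0.0018 for DNAJC. Single genes were followed only for the members named by the rule above. Among these, values near 0 changed sign for Hsf1 on the TPM scale (-0.0040) and Hspa9 with quantile normalization (-0.0292). They also did so with 1 sample left out, over ranges of -0.0970 to 0.0043 for Dnajb1, -0.0521 to 0.0032 for Hspd1, -0.0305 to 0.0122 for Dnajc15, -0.0329 to 0.0603 for Hsf1 and -0.0064 to 0.0936 for Hspa9, none of them called. Among these named members, calls were lost for Hsp90aa1 in 9 of 21 alternatives, Hsph1 in 5, Dnajc28 in 2 and Cryab in 1. The cause was not tested, and losses among the other members were not followed. The named members gained calls 8 times with 1 sample left out (Hspe1 in 3 fits, Hsp90ab1 and Hsp90b1 in 2 each, Hspa8 in 1). They gained 8 calls with the block, whereas the 25 and 32 called with it cover all tested members. Of the other values of the named members, 328 outside the single-sample fits and 418 within them kept direction and side of the threshold. Depth limits members with few fragments (Dnajc5b, Hsf2bp and Dnajb14).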
